A study of Bos taurus with 29 samples.

Results

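The comparison described here sets chronic digital dermatitis lesions, stage M4, against control skin, stage M0, in Holstein-Friesian cattle, a dairy breed. It takes the 5 M4 libraries and the 5 M0 libraries, 10 of the 29 libraries of the series, and every gene in the deposited table of this contrast, 10833 of the 11479 genes listed for any stage. Gene expression was measured by sequencing the 3′ ends of messenger RNA from frozen skin punch biopsies, with 1 library per biopsy. The M4 group is labelled disease stage M4 and was taken at the lesion site of cows on dairy farms. The M0 group is labelled as the control group and was taken above the interdigital cleft, the gap between the claws, of cattle after slaughter. The series also holds lesion stages M1, M2, M3 and M4.1, with 19 libraries in all, which come from the lesion site. The labels add that slaughtered cattle gave 2 of the M1 samples without saying which, so tissue source also differs within these stages. The labels give no age, sex or treatment, and they do not say that the replicates of a group are different animals. The p-values therefore measure the spread between these samples. Disease, body site and source of the tissue (living cow on a farm or carcass) all differ between M4 and M0 and cannot be told apart.

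In digital dermatitis, a contagious disease of the skin above the claws, spiral-shaped bacteria, the treponemes, are found in the lesion. In the scoring of its stages, M4 stands for the chronic lesion, in which the epidermis is thickened by excess horn or grows outwards. The epidermis is built of keratinocytes that divide in the basal layer, rise through the spinous layer, where they are joined by desmosomes, and end as dead cornified cells held together by crosslinked proteins and lipids. Injured epidermis switches to another programme with keratins 6 and 17, S100 proteins and growth factors of the EGF family. Haired skin of cattle also holds hair follicles with their own hard keratins, sebaceous glands that secrete wax and sterol lipids, and apocrine sweat glands.

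The 5 M4 libraries held 3652349 to 5038912 counts in listed genes and the 5 M0 libraries 4349860 to 5337415. Levels are given in CPM, counts divided by the scaled library total in units of 1000000, after scaling with TMM (trimmed mean of M-values) factors, which ran from 0.647 to 0.935 in M4 and from 1.07 to 1.29 in M0. Keratin genes took 16.5% to 30.4% of the counts in M4 libraries and 4.70% to 6.12% in M0 libraries, with the highest share in M4 replicate 1. Protein-coding genes of the mitochondrial genome that have a symbol took 5.35% to 6.83% in M4 and 9.51% to 11.3% in M0. Both shares are of counts before TMM scaling, and genes without a symbol were left out of them. In a principal component analysis of log2 CPM, component 1 held 64.1% of the variance and separated all M4 libraries from all M0 libraries. Component 2 held 9.14% and spread the M4 libraries, with M4 replicate 2 at -50.1 and M4 replicate 1 at 41.6. The keratinocyte gene KRT5 fitted the labelled tissue, at 11597 to 16939.7 CPM in M4 libraries and 5063 to 7335 CPM in M0 libraries. The skeletal muscle gene CKM was low, at 3.49 ± 2.13 CPM in M4 and 3.35 ± 0.455 CPM in M0 (mean ± SD, n = 5 each). The 5 listed skeletal muscle and blood markers, CKM among them, summed to 5.33 to 12.7 CPM in M4 and 18.6 to 48.4 CPM in M0.

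Of the 10833 genes tested with the quasi-likelihood test of edgeR, 2040 were higher and 2323 lower in M4 than in M0 at an adjusted p under 0.05, so that 40.3% of all genes passed in either direction, 18.8% as higher and 21.4% as lower. The falls were larger than the rises. A fold change of at least 2 was reached by 977 of the higher and 1422 of the lower genes, and a fold change of at least 32 by 41 and 172 genes. Among the called genes the median log2 fold change was 0.964 for those higher and -1.24 for those lower, and over all tested genes the median was -0.06. In 3136 genes, 28.9% of those tested, no M4 library overlapped any M0 library. There were 77 genes that had no count in any M4 library, against 4 genes with no count in any M0 library. The table lists only genes above 1 CPM (before TMM scaling) in at least 5 of these 10 libraries. A gene that stayed under it in all of M4 was therefore listed only if all M0 libraries were above it. Its lack of overlap is set by that filter. The same holds, with the groups exchanged, for a gene that stayed under 1 CPM in all of M0.

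**Figure D1:**
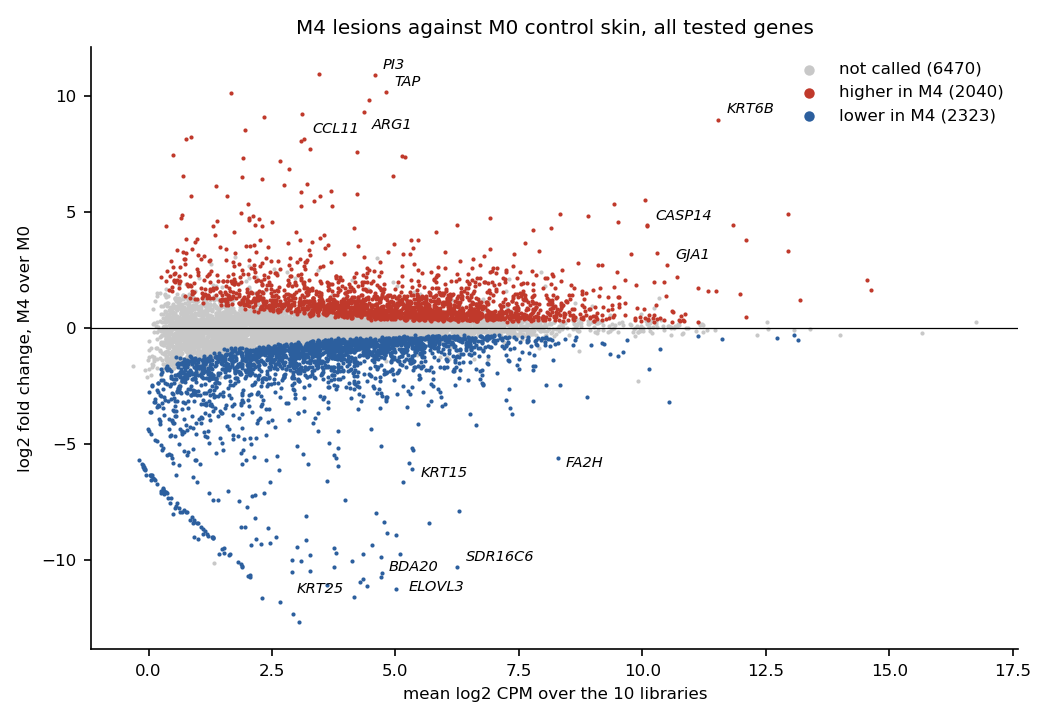
Each point is 1 of 10833 genes, with its mean log2 CPM over the 10 libraries on the horizontal axis and its log2 fold change of M4 over M0 on the vertical axis. The 2040 genes called higher are red, the 2323 called lower are blue and the others are grey. Points along the lower left edge are genes without counts in M4, whose fitted fold change depends on the prior count. Of the labelled genes, the sebaceous gene ELOVL3 and the hair keratin KRT25 lie furthest below 0, and PI3 lies furthest above it.

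The genes of highest mean level in M4 were KRT6B, KRT10, KRT1, KRT6A, KRT14, S100A8, S100A12 and ATP6, beside ENSBTAG00000043570 and ENSBTAG00000043567, which have no symbol in the table. Of these, KRT10, KRT1, ATP6 and both unnamed genes were also among the 10 highest in M0. Each transcript gives reads from its 3′ end only, so levels were not divided by length.

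The largest rises in M4 included protease inhibitors and other products of stressed or defending epithelia. PI3, which encodes the protease inhibitor elafin, stood at 767, 819, 1789, 659 and 827 CPM in the M4 libraries, against 0, 0, 0, 0 and 2.45 CPM in the M0 libraries. All M4 values lay above all M0 values, and M0 replicate 5 was the only control library with a count. The log2 fold change of PI3 was 10.90 ± 0.94 (± SE; adjusted p = 2.8e-05). A2ML1, another protease inhibitor of the upper epidermis, had 466, 177, 259.7, 224 and 147 CPM in M4, against 0, 0, 0, 0.149 and 0.351 CPM in M0. With 3 counts in all M0 libraries together, the M4 level exceeded the M0 level by a ratio of 2341 (interval 800.5 to 11360), at a confidence level of 95% for counting error only (adjusted p = 2.2e-07). ARG1, arginase 1, which splits arginine into ornithine and urea, had 1364, 156, 883, 322 and 745 CPM in M4, against 0, 0, 0.203, 0 and 5.26 CPM in M0. M4 replicate 2 was lowest among the lesions for ARG1 and still lay above every control, at a log2 fold change of 9.30 ± 1.26 (adjusted p = 5.0e-04). APOBEC3Z1, a cytidine deaminase that acts against retroviruses, had no count in M0 and 21.4, 20.8, 81.9, 14.9 and 11.6 CPM in M4. The lesions were at least 278-fold higher, counting 3 reads over the M0 group as the floor (adjusted p = 0.0056). TCN1, a vitamin B12 binding protein stored in neutrophil granules, averaged 53.0 ± 12.8 CPM in M4 with 2 counts in all of M0, a ratio of 765 (interval 211 to 6325). AQP5, a water channel of secretory epithelia, averaged 35.9 ± 18.7 CPM in M4, also against 2 counts in M0, a ratio of 504 (interval 139 to 4171). RHCG, an ammonia transporter of epithelia, rose by a log2 fold change of 7.57 ± 0.67, and KRT9, the keratin of palm and sole epidermis in humans, by 7.34 ± 1.42. For KRT9 the M4 libraries spanned a wide range, from 1.76 to 118 CPM, and the M0 libraries ran from 0 to 0.621 CPM. No M0 library stood above 1 CPM for KRT9, so that the filter of the table fixes its lack of overlap.

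Genes of injured keratinocytes held the most abundant of the transcripts that rose in M4. Of 28 listed genes of wound and hyperproliferative keratinocytes, 23 rose and 1 fell, and the median log2 fold change over the 28 was 3.2. Their summed level was 151300 to 271000 CPM in M4 libraries and 5049 to 8205 CPM in M0 libraries. KRT6B, a keratin of wounded epidermis, had 142113, 63729, 71559, 69767 and 49855 CPM in the M4 libraries, against 29.97, 319.5, 108, 96.5 and 227 CPM in the M0 libraries. Every M4 library lay above every M0 library by more than 2 orders of magnitude, with M4 replicate 1 the highest. The log2 fold change was 8.99 ± 0.83 (adjusted p = 5.0e-05). KRT6A, its close copy, had 64738, 34799, 50477, 46661 and 33508 CPM in M4, against 824, 2342, 999, 1709.6 and 1678 CPM in M0, with no overlap and a log2 fold change of 4.93 ± 0.35 (adjusted p = 3.9e-06). Reads of KRT6A and KRT6B can be assigned to either copy, so the split between them is uncertain. KRT17, the partner of the wound keratins, rose by 4.45 ± 0.28 on the log2 scale (adjusted p = 3.3e-07).

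The S100 proteins, calcium-binding alarm signals of keratinocytes and neutrophils, belonged to the same group. S100A8 had 20591, 13497, 18197, 16697 and 28226 CPM in M4, against 1145, 734, 705, 179 and 1762 CPM in M0. S100A12 had 17495, 14247, 15791, 16087 and 21553 CPM in M4, against 1709, 915, 1279, 585 and 1677 CPM in M0. Neither gene had overlapping groups, and M0 replicate 4 was the lowest control library for both. Their log2 fold changes were 4.42 ± 0.59 for S100A8 (adjusted p = 4.2e-04) and 3.79 ± 0.30 for S100A12 (adjusted p = 4.0e-06). The gap junction gene GJB6 rose by 4.23 ± 0.17 and the related GJB2 by 4.84 ± 0.30. SFN, an adaptor of the YWHA family restricted to epithelia, rose by 3.24 ± 0.18 and SERPINB4, a serine protease inhibitor of squamous cells, by 5.35 ± 0.57. AREG, a growth factor that binds the EGF receptor, averaged 90.3 ± 31.8 CPM in M4 and 9.27 ± 1.71 CPM in M0, a log2 fold change of 3.28 ± 0.25 (adjusted p = 2.4e-07). The EGF-like factors EREG, EPGN and HBEGF rose as well, by 3.4 ± 0.54, 3.15 ± 0.59 and 2.32 ± 0.37. The member that fell was KRT75, a keratin of the companion layer of the hair follicle, at -5.10 ± 0.64 (adjusted p = 1.9e-04). In bulk tissue, fewer cells of a type and less RNA per cell cannot be told apart.

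**Figure D2:**
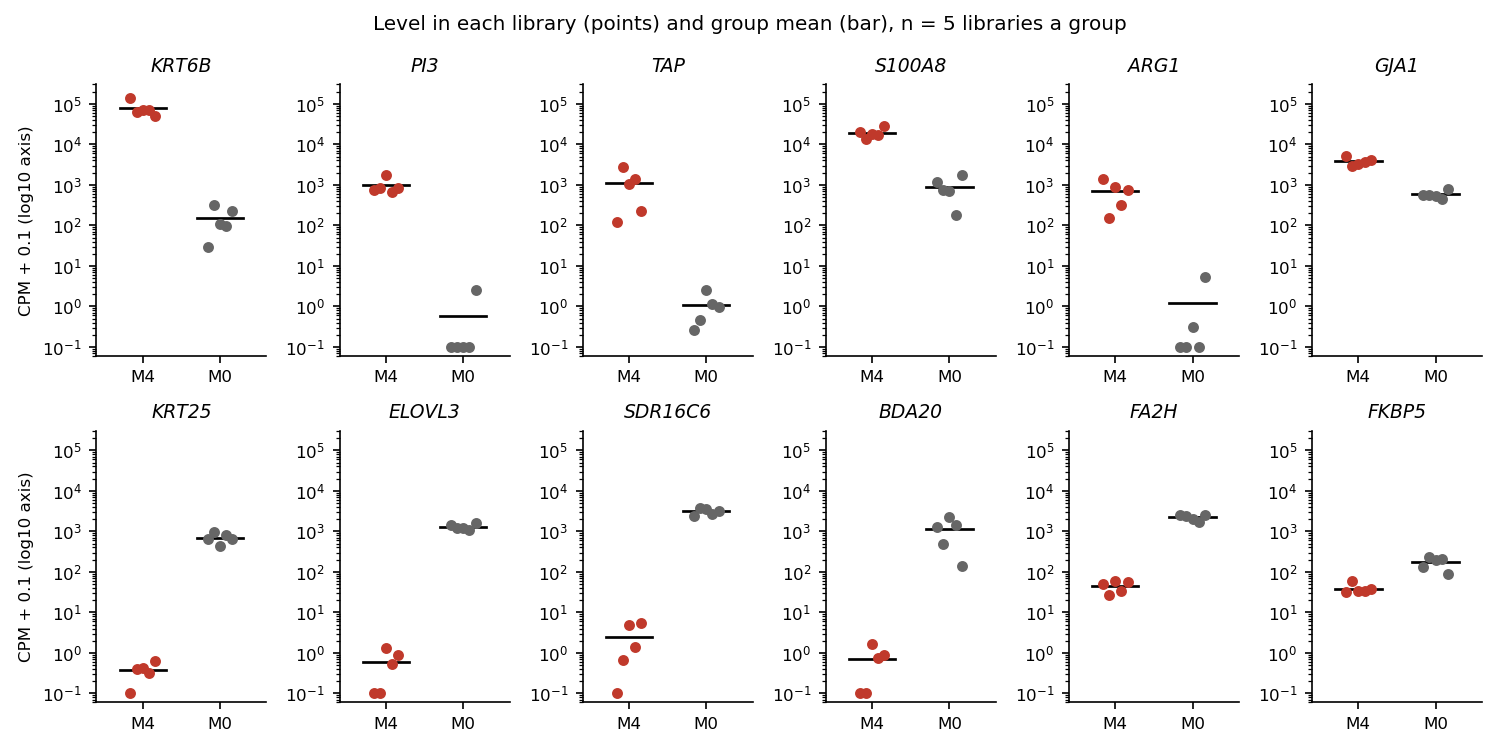
Level in CPM on a log10 axis, with 0.1 added so that libraries without counts can be drawn, for 12 genes that carry the contrast. M4 libraries are red and stand left of the M0 libraries, which are grey, and a bar marks each group mean. In the upper row every M4 library lies above every M0 library, and in the lower row every M4 library lies below every M0 library.

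Among 19 listed genes of the basal layer 4 rose and 5 fell, shares near the 18.8% and 21.4% of all genes, and the median was -0.05. KRT14, the keratin of dividing keratinocytes, had 39699.7, 18767, 26464, 25215 and 19243 CPM in M4, against 2721, 3042, 2317, 2117 and 2527 CPM in M0, with no overlap, and its log2 fold change was 3.35 ± 0.20 (adjusted p = 5.4e-08). Its partner KRT5 rose by 1.23 ± 0.13. KRT15, a keratin of basal cells and of hair follicle stem cells, fell to 5.08 ± 2.09 CPM in M4, against 343 ± 143 CPM in M0, a log2 fold change of -6.06 ± 0.40 (adjusted p = 8.9e-07). CAV1, the coat protein of caveolae, fell by 1.54 ± 0.16. The hemidesmosome gene COL17A1 averaged 405 ± 62.4 CPM in M4 and 399 ± 66.3 CPM in M0 and was not called.

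The spinous layer was higher in M4. Of 22 listed genes of the spinous layer and its desmosomes, 15 rose and 1 fell, with a median of 1.62. PKP1 and JUP, plaque proteins of desmosomes, rose by 3.07 ± 0.20 (adjusted p = 2.0e-08) and 1.73 ± 0.15 (adjusted p = 2.9e-07). DSC2, a desmosomal cadherin, rose by 4.67 ± 0.44 and PERP, a desmosome protein regulated by p63, by 1.49 ± 0.16. KRT1 and KRT10, the keratin pair of the spinous layer, were among the most abundant genes of both groups. KRT10 had 103942, 21630.0, 31315, 30058 and 85968 CPM in M4, against 11106, 11171, 14881, 9753 and 18725 CPM in M0, with no overlap and a log2 fold change of 2.06 ± 0.49 (adjusted p = 0.0097). KRT1 had 97673, 18314, 22711, 34453 and 77961 CPM in M4, against 14709, 14324, 20964, 12164 and 17904 CPM in M0. M4 replicate 2 lay within the range of the controls and M4 replicate 3 just above it, so the groups overlapped. Its log2 fold change of 1.65 ± 0.49 passed narrowly (adjusted p = 0.027), and the call was lost when M4 replicate 1 or 5 or M0 replicate 1, 2 or 4 was left out (adjusted p 0.053 to 0.061, log2 fold change 1.26 to 1.64). DSG2, the desmosomal cadherin of simple epithelia and hair follicles, was the member that fell, at -1.91 ± 0.30.

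Genes of the cornified layer were more often higher than lower. Among 25 listed genes 11 rose and 4 fell, with a median of 1.24, beside 18.8% of all genes called higher and 21.4% called lower. The share that fell was thus not above that of all genes. CASP14, the protease that processes filaggrin, had 13235, 1739, 4662, 4421 and 6395 CPM in M4, against 105, 286, 349, 128 and 563 CPM in M0, with no overlap and a log2 fold change of 4.41 ± 0.72 (adjusted p = 0.0014). TGM3, a transglutaminase that crosslinks the cornified envelope, rose by 4.74 ± 0.38, its relative TGM1 by 2.67 ± 0.47, and IVL, involucrin, a substrate of both, by 3.81 ± 0.49. CNFN, cornifelin, rose by 4.45 ± 0.62. The members that fell include genes of the hair follicle. PADI3, a deiminase of the inner root sheath, fell by 5.66 ± 0.39 and TCHHL1, a relative of trichohyalin, had 1 count in all M4 libraries together, against 1575 in all M0 libraries, M0 being higher by a ratio of 939 (interval 168 to 37110). CRNN, cornulin of the upper epidermis, had 2 counts in M4, against 213 in M0, M0 being higher by a ratio of 63.5 (interval 17.4 to 528). CST6, a cysteine protease inhibitor, fell by 2.99 ± 0.37. LOR, loricrin, a main protein of the normal cornified envelope, averaged 3.26 ± 3.26 CPM in M4 and 8.61 ± 3.54 CPM in M0 and was not called (log2 fold change -1.49 ± 0.69, adjusted p = 0.11), but was called at -2.12 without M4 replicate 1 (adjusted p = 0.028).

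Proteases that loosen cornified cells and their inhibitors were more often higher than lower, with 11 of 26 listed genes higher and 1 lower. KLK10, a kallikrein protease, rose by 1.68 ± 0.13, and the inhibitor SERPINB1 by 1.4 ± 0.14. PRSS27, a serine protease of squamous epithelium, rose by 3.78 ± 0.78. WFDC2 was the member lower in M4, at -1.62 ± 0.50, and was not called without M4 replicate 3 (-1.5, adjusted p = 0.05). Lipid genes of the barrier leaned the other way, with 5 higher and 9 lower of 27 listed. FA2H, which hydroxylates the fatty acids of ceramides and of sebum lipids, had 50.2, 27.5, 58.7, 33.8 and 57.7 CPM in M4, against 2481, 2328, 2075, 1708 and 2564 CPM in M0. No M4 library reached the level of any M0 library, and the log2 fold change was -5.62 ± 0.24 (adjusted p = 9.8e-10). ASAH1 and SGPL1, which break down ceramide and its sphingosine phosphate product, fell by 1.93 ± 0.13 and 2.49 ± 0.19. CERS3, the ceramide synthase of the epidermal barrier, rose by 1.38 ± 0.24 (adjusted p = 4.7e-04).

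**Figure D3:**
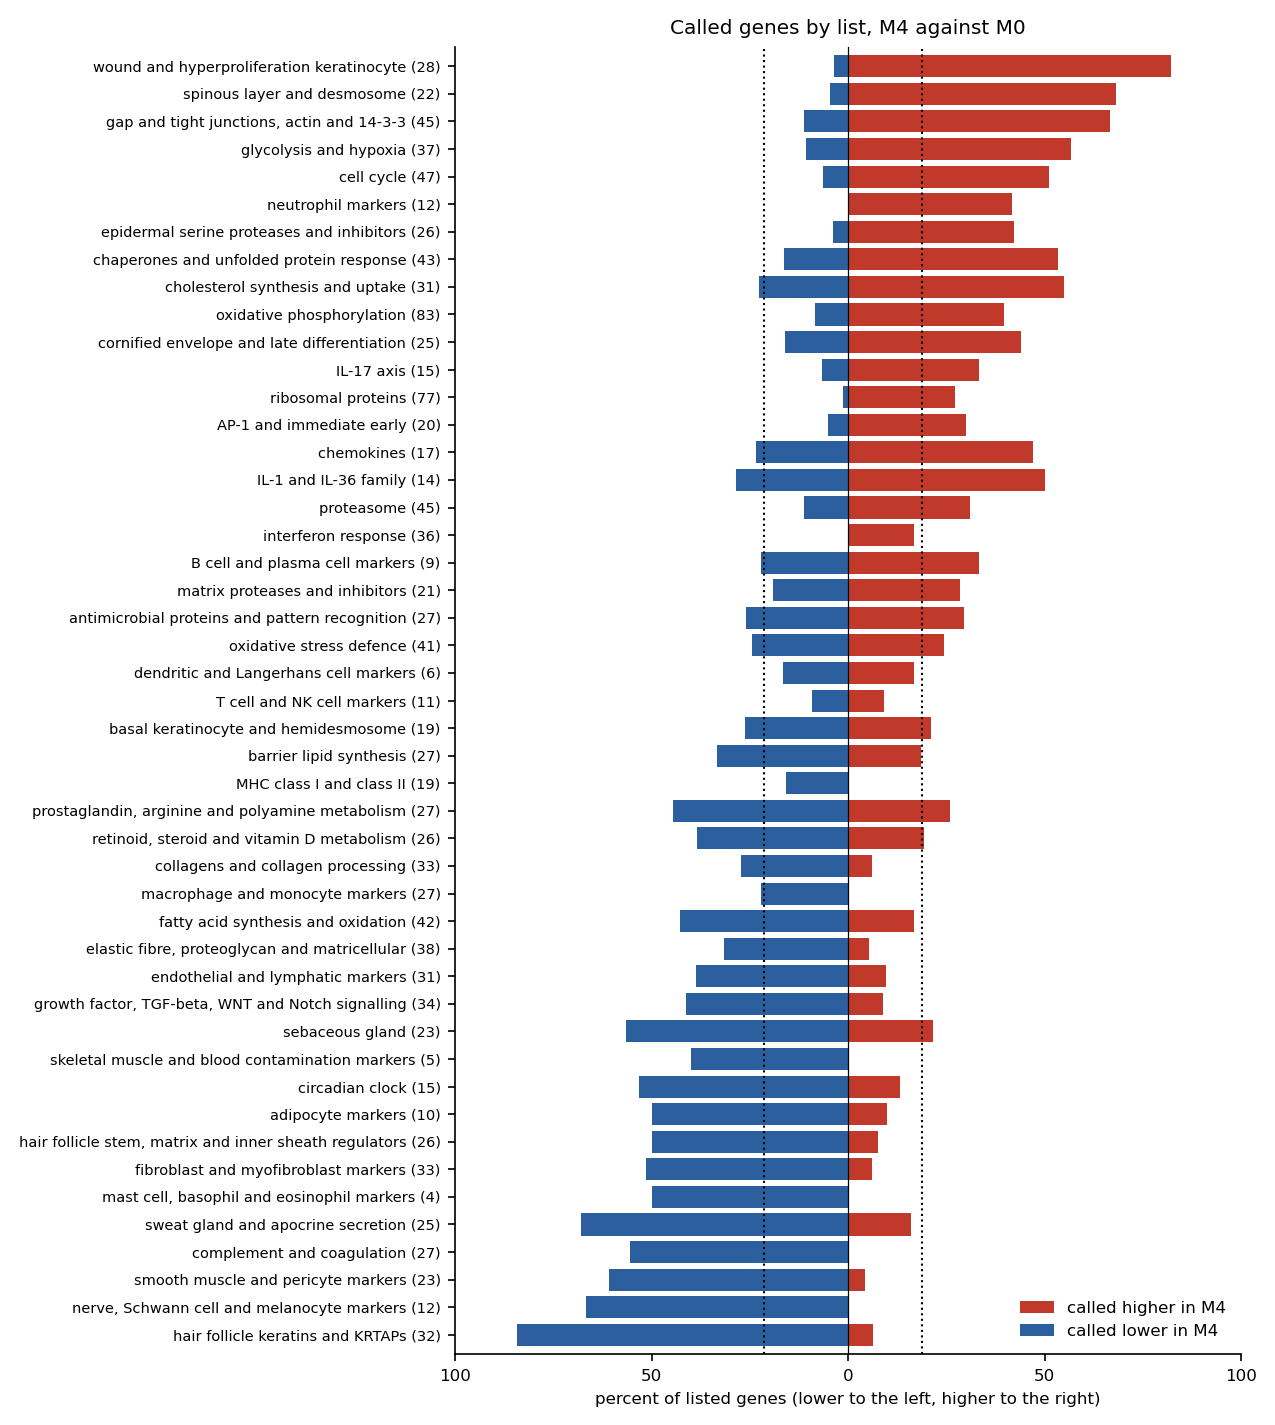
Percent of the listed genes of each group that were called higher (red, to the right) or lower (blue, to the left) in M4 than in M0, with the number of listed genes in parentheses. Dotted lines mark the shares over all 10833 genes, 18.8% higher and 21.4% lower. Wound keratinocyte genes reach furthest to the right and hair follicle keratins furthest to the left.

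Antimicrobial genes moved in both directions, with the beta-defensins TAP and LAP far higher and several secreted proteins of glands lower. Of 27 listed genes 8 rose and 7 fell, with a median of 0.44, and the share that fell lies near the 21.4% of all genes. TAP, the tracheal antimicrobial peptide, a beta-defensin of bovine epithelia, had 121, 2765, 1055, 1422 and 225 CPM in M4, against 0.155, 0.372, 2.44, 1.04 and 0.876 CPM in M0. M4 replicates 1 and 5 were the lowest lesions and still lay above all controls, at a log2 fold change of 10.18 ± 1.26 (adjusted p = 3.0e-04). LAP, the lingual antimicrobial peptide, had 229.9, 661, 841, 950.3 and 277 CPM in M4, against 0.466, 0.745, 0, 0.894 and 0.876 CPM in M0, with no overlap and a log2 fold change of 9.85 ± 0.70 (adjusted p = 5.8e-06). Beta-defensins of cattle are near copies, so reads may be shared between TAP and LAP. LPO, lactoperoxidase, which makes oxidants that kill bacteria, rose by 8.05 ± 0.63 (adjusted p = 5.8e-06). LYZ1, a lysozyme, rose by 6.54 ± 0.80. RNASE4, a secreted ribonuclease, fell by 2.21 ± 0.19 (adjusted p = 4.3e-07), LTF, lactoferrin, by 3.07 ± 0.66 and LCN2, an iron-siderophore binding protein of glands and neutrophils, by 3.72 ± 0.64. PIGR, the receptor that carries IgA into secretions, had no count in M4 and 1.24, 14.2, 3.65, 28.3 and 25.2 CPM in M0, so it was at least 86.7-fold lower (adjusted p = 0.031). The PIGR call was lost without M0 replicate 2, 4 or 5, with adjusted p of 0.069, 0.05 and 0.058 for these libraries in order. S100A7, psoriasin, averaged 785 ± 1203 CPM in M4 and 3756 ± 1305 CPM in M0. Its M4 libraries ran from 25.8 to 2883 CPM and overlapped the controls, and it was not called (adjusted p = 0.15), whereas without M4 replicate 5 it was, at -3.85 (adjusted p = 0.016).

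Chemokines that attract neutrophils were higher in M4. Of 17 listed chemokines 8 rose and 4 fell, with a median of 1.24, and the number that rose was 5 without M4 replicate 2, M4 replicate 4, M0 replicate 2 or M0 replicate 4. CXCL2 had 3.89, 141, 47.1, 227 and 26.4 CPM in M4, against 1.55, 0.372, 0.203, 0.298 and 0.351 CPM in M0. GRO1, the bovine CXCL1, had 7.78, 204, 16, 237 and 19.7 CPM in M4, against 1.09, 0.745, 1.01, 0.745 and 0.526 CPM in M0. CXCL8, interleukin 8, had 1.94, 73.5, 8.16, 87.6 and 12.4 CPM in M4, against 0.311, 0.186, 0.406, 0.298 and 0.701 CPM in M0. For all 3 genes the groups did not overlap, M4 replicates 2 and 4 were the highest lesions and M4 replicate 1 the lowest. For CXCL8 no M0 library stood above 1 CPM, so that the filter of the table fixes its lack of overlap. The log2 fold changes were 7.21 ± 1.27 for CXCL2 (adjusted p = 0.0021), 6.84 ± 1.32 for GRO1 (adjusted p = 0.0035) and 6.52 ± 1.26 for CXCL8 (adjusted p = 0.0033). With limma-voom the CXCL2 call was lost (6.52, adjusted p = 0.055). CCL11, eotaxin, which attracts eosinophils, had 68.8, 229, 57.1, 144 and 77.9 CPM in M4, against 0.155, 0.372, 0.203, 0.298 and 0.876 CPM in M0, with no overlap and a log2 fold change of 8.16 ± 0.62 (adjusted p = 5.0e-06). CCL20, which attracts cells that bear the receptor CCR6, rose by 3.56 ± 0.76. In the other direction, CCL26, another eotaxin, had no count in M4 and 3.45 to 18.3 CPM in M0, at least 53.7-fold lower (adjusted p = 1.2e-04). CXCL12 fell by 2.62 ± 0.45 and CX3CL1 by 0.96 ± 0.16.

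The interleukin 1 family moved in both directions. Of 14 listed genes 7 rose and 4 fell, with a median of 1.28, beside 18.8% of all genes called higher and 21.4% called lower. IL36A, an activating cytokine of keratinocytes, had no count in M0 and 4.67, 5.86, 13.2, 11.8 and 4.85 CPM in M4, at least 81.1-fold higher (adjusted p = 8.3e-06). IL36G rose by 4.33 ± 0.84 and IL1A by 3.60 ± 0.59. IL1B was higher at 3.69 ± 1.16 (adjusted p = 0.033), with overlapping groups, and was not called without M4 replicate 2 or 4 or without any of M0 replicates 1 to 4 (3.09 to 3.77, adjusted p 0.067 to 0.074). The receptor antagonists rose too, IL1RN by 2.28 ± 0.17 (adjusted p = 9.5e-08) and IL36RN by 1.90 ± 0.24. Members known to restrain inflammation also fell, IL37 to 0.305 ± 0.473 CPM in M4, against 21.6 ± 5.29 CPM in M0 (log2 fold change -5.87 ± 0.48, adjusted p = 2.3e-07), and IL1F10, interleukin 38, by 4.72 ± 0.55. IL1R2, the decoy receptor, fell by 2.94 ± 0.46. Of 15 listed genes of the interleukin 17 axis, 5 rose and 1 fell, with a median of 0.19. Those that rose act downstream of the receptor: TRAF3IP2, its adaptor, by 1.22 ± 0.16, MAPK13, a stress kinase, by 1.71 ± 0.25, NFKBIZ, a transcriptional cofactor, by 1.34 ± 0.42, TNFAIP3, a brake on NF-kappa-B, by 1.28 ± 0.32, and NFKBIA by 0.49 ± 0.15. NFKBIZ was not called without M4 replicate 2, 3 or 4 or M0 replicate 2 or 5 (1.2 to 1.3, adjusted p 0.058 to 0.065). The receptor subunit IL17RA stood at 36.2 ± 4.71 CPM in M4 and 37.0 ± 5.44 CPM in M0 and was not called (adjusted p = 0.9). No cytokine of the interleukin 17 family is among the genes listed in this table.

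Interferon response genes were highest in 1 lesion, M4 replicate 3. Of 36 listed genes 6 rose, a share near the 18.8% of all genes, with a median of 1.01. The number that rose was 13 when all 29 libraries were fitted together and 3 with replicate numbers as a block. ISG15, a ubiquitin-like protein induced by interferon, had 1.94, 1.17, 229, 11.1 and 13.7 CPM in M4, against 1.71, 0.372, 0.812, 1.64 and 1.4 CPM in M0. M4 replicate 3 stood far above the other lesions, and M4 replicates 1 and 2 lay near the controls. The log2 fold change was 5.36 ± 1.61 (adjusted p = 0.028) and 2.54 without M4 replicate 3, and the call was lost when any M0 library was left out (5.15 to 5.56, adjusted p 0.059 to 0.064). SAMD9 and IFI27 showed the same high library, with log2 fold changes of 3.38 ± 0.86 and 2.60 ± 0.71 that were 2.11 and 1.42 without M4 replicate 3. MX1 had 7.0, 8.20, 81.6, 12.4 and 4.58 CPM in M4, against 7.61, 3.72, 2.64, 7.90 and 2.63 CPM in M0, and was not called (adjusted p = 0.081). The antiviral genes ISG20 and IRF7 rose by 1.56 ± 0.42 and 2.01 ± 0.52.

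Calls among markers of immune cells are given by list, beside 18.8% of all genes called higher and 21.4% called lower. Several of these lists are short, so that few genes set their shares. Of 12 neutrophil markers 5 rose, with a median of 1.3 and a summed level of 30660 to 55220 CPM in M4 and 810.1 to 3942 CPM in M0, nearly all of it from S100 genes. Those that rose were S100A8, S100A9 and S100A12, which keratinocytes also express, MMP9, a gelatinase, at 5.26 ± 0.73, and ARG2, at 3.86 ± 0.59. The other 7 stood at 1.1 to 15.6 CPM on average in M4, the highest being ALPL, and were not called. Among them the Fc receptor gene FCGR3A averaged 1.94 ± 1.39 CPM in M4 and 1.22 ± 0.622 CPM in M0, the deiminase PADI4 1.1 ± 1.41 CPM in M4 and 1.5 ± 0.761 CPM in M0, and the leukotriene receptor LTB4R 4.77 ± 1.45 CPM in M4 and 3.47 ± 0.794 CPM in M0. Of 27 macrophage and monocyte markers 6 fell, a share near the 21.4% of all genes, and 0 rose, with a median of -0.22 and a summed level of 823 to 1117 CPM in M4 and 1255 to 1585 CPM in M0. SPP1, osteopontin, fell to 1.44 ± 1.86 CPM in M4, against 60.7 ± 27 CPM in M0 (log2 fold change -5.42 ± 0.61, adjusted p = 8.0e-05), and APOE fell by 3.65 ± 0.60. Of 11 T and NK cell markers 1 rose and 1 fell, LCK by 1.07 ± 0.35 and IL7R by 1.19 ± 0.42, and their summed level was 48.6 to 74.4 CPM in M4 and 44.9 to 72.4 CPM in M0. LCK was not called without M4 replicate 5 (adjusted p = 0.092), and IL7R was not called without M4 replicate 1, 3 or 5 or M0 replicate 1 or 4 (-1.17 to -0.82, adjusted p 0.059 to 0.12). Of 9 B and plasma cell markers 3 rose, all of them secretory pathway genes of small change such as TXNDC5 at 0.90 ± 0.13, and 2 fell, CR2 at -4.66 ± 0.84 and JCHAIN, the joining chain of IgA and IgM, at -1.47 ± 0.44. Without M4 replicate 1, M0 replicate 1 or M0 replicate 5 JCHAIN was not called (-1.37 to -1.32, adjusted p 0.05 to 0.052), which left 1 that fell. Of 4 mast cell, basophil and eosinophil markers 2 fell, KIT by 2.2 ± 0.31 and GATA2 by 1.21 ± 0.22. Of 6 dendritic cell markers FSCN1, an actin bundler that keratinocytes also use, rose by 2.45 ± 0.17 and EPCAM, which is also an epithelial gene, fell by 3.72 ± 0.32. Of 19 genes of antigen presentation 3 fell and 0 rose, the class II genes BOLA-DYA and BOLA-DYB and the lysosomal reductase IFI30, by 1.42 ± 0.15 for IFI30. BOLA-DYB had no count in M4 and was at least 23.1-fold lower, and BOLA-DYA had 3 counts in M4, all of them in M4 replicate 2, with M0 higher by a ratio of 43.7 (interval 14.8 to 214). Where edgeR called 0 genes in a direction, for macrophage markers, antigen presentation and the complement genes described next, 0 also had an unadjusted p under 0.05 in that direction and DESeq2 and limma-voom called 0. Without M0 replicate 1, 1 gene of antigen presentation was called higher.

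Complement and coagulation genes were often lower in M4. Of 27 listed genes 15 fell and 0 rose, with a median of -1.4 and a summed level of 456 to 794 CPM in M4 against 1398 to 1976 CPM in M0. C4A, a component of the classical pathway, fell by 3.1 ± 0.46, and SERPING1, the inhibitor of its first enzymes, by 1.88 ± 0.37. CD55, which protects cells from complement, fell by 2.18 ± 0.21 (adjusted p = 1.3e-06), and CLU, clusterin, by 1.86 ± 0.20. F3, tissue factor, the trigger of coagulation, averaged 122 ± 62.2 CPM in M4 and 672 ± 263 CPM in M0, a log2 fold change of -2.46 ± 0.40 (adjusted p = 0.001).

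Hair follicle keratins were close to absent in M4. Of 32 listed hair keratins, keratin-associated proteins and related genes, 27 fell and 2 rose, with a median of -8.57 in the fit and of -7.97 when genes without counts in M4 were set at their bound. The summed level was 69.4 to 199.5 CPM in M4 libraries and 6878 to 12010 CPM in M0 libraries. KRT25, which builds the inner root sheath of the hair, had 0, 0.293, 0.314, 0.222 and 0.539 CPM in M4, against 631, 957, 442, 830.2 and 662 CPM in M0, a log2 fold change of -11.13 ± 0.34 (adjusted p = 2.6e-11). KRT35, a keratin of the hair matrix and cuticle, had no count in any M4 library and 97.1, 136, 216, 123 and 122 CPM in M0, at least 784-fold lower (adjusted p = 1.6e-07). KRTAP4-7, which crosslinks hair keratins, had no count in M4 and 189, 194, 278, 72.1 and 134 CPM in M0, at least 968-fold lower (adjusted p = 2.6e-04). For these 3 genes no M4 library stood above 1 CPM, so that the filter of the table fixes their lack of overlap. KRT31, a keratin of the hair cortex, had 2 counts in M4, and its level in M0 was higher by a ratio of 2617 (interval 724 to 21610). KRTAP12-2 had no count in M4 and was at least 187-fold lower. KRT27, KRT74 and KRTAP1-1 fell, with log2 fold changes of -10.31 ± 0.51, -9.33 ± 0.31 and -10.93 ± 0.46. Keratin-associated proteins form families of near copies, so reads may be shared between them. KRT34, a hair cortex keratin, fell by 4.13 ± 1.1 and had 52.1, 0, 44.5, 4.22 and 0.809 CPM in the M4 libraries, against 346, 269.8, 469, 375 and 260.3 CPM in M0, so that M4 replicates 1 and 3 kept the most. The members that rose, CRYM by 1.18 ± 0.26 and SELENBP1 by 0.83 ± 0.21, are not keratins. Regulators of the follicle changed less: of 26 listed, 2 rose and 13 fell, with a median of -0.57. LHX2, a transcription factor of follicle stem cells, fell by 2.59 ± 0.21 and BMP4, a dermal papilla signal, by 1.91 ± 0.26, whereas WNT10A, a ligand of hair and epidermis, rose by 2.03 ± 0.30. The number of regulators that rose was 1 without M4 replicate 1, M4 replicate 3, M4 replicate 5, M0 replicate 2 or M0 replicate 4.

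Genes specific to sebaceous glands were near 0 in M4 as well. Of 23 listed genes 13 fell and 5 rose, with a median of -1.78 and a summed level of 3916 to 4269 CPM in M4 and 6132 to 8358 CPM in M0, which in M4 came mostly from FABP5, SCD and FASN, genes that other cells also use. ELOVL3, the elongase of sebaceous very long chain fatty acids, had 0, 0, 1.25, 0.445 and 0.809 CPM in M4, against 1417, 1214, 1193, 1063 and 1654 CPM in M0. SDR16C6, a dehydrogenase of the same glands in mice, had 0, 0.586, 4.71, 1.33 and 5.39 CPM in M4, against 2432, 3750.4, 3570.3, 2738 and 3231 CPM in M0. MOGAT2, which makes diacylglycerol, had 0, 0, 0.314, 0.889 and 1.35 CPM in M4, against 790.2, 1014, 704, 923 and 1050.4 CPM in M0. All 3 were thus near 0 in every lesion, with no overlap, and their log2 fold changes were -11.23 ± 0.40 for ELOVL3, -10.30 ± 0.66 for SDR16C6 and -10.56 ± 0.41 for MOGAT2 (adjusted p = 9.2e-10, 3.5e-06 and 3.5e-09 in the same order). SEC14L6, a lipid transfer protein, had no count in M4 and was at least 552-fold lower (adjusted p = 4.3e-09). DGAT2L6, an acyltransferase, had 1 count in M4, and its level in M0 was higher by a ratio of 2130 (interval 382 to 84160). CYP11A1, the enzyme that starts steroid synthesis from cholesterol, had no count in M4 and 17.6, 54.9, 58.4, 46.0 and 39.1 CPM in M0, at least 244-fold lower (adjusted p = 2.2e-05). Lower too were FAR2, which makes wax alcohols, at -8.34 ± 0.27, ACSBG1, an acyl-CoA synthetase, at -9.47 ± 0.37, and PPARG, the transcription factor of sebocytes and fat cells, at -6.62 ± 0.38. The genes that rose are shared with other cells: SCD, stearoyl-CoA desaturase, by 2.5 ± 0.30, ELOVL5 by 2.02 ± 0.13 and FABP5, the fatty acid binding protein of epidermis, by 0.68 ± 0.10.

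Apocrine and sweat gland genes followed. Of 25 listed genes 17 fell and 4 rose, with a median of -4.15 and a summed level of 968 to 1647 CPM in M4 and 2113 to 4701 CPM in M0. BDA20, a lipocalin of cow dander, had 0, 0, 1.57, 0.667 and 0.809 CPM in M4, against 1264, 485, 2308, 1414 and 140.0 CPM in M0, a log2 fold change of -10.74 ± 1.13 (adjusted p = 1.1e-04). The M0 libraries themselves ranged widely, with M0 replicate 5 the lowest, and the groups did not overlap. MUCL1, a mucin-like protein of apocrine glands, had no count in M4 and 65.1, 26.8, 212, 107 and 13.7 CPM in M0, at least 479-fold lower (adjusted p = 0.017). KRT19, a keratin of glands and simple epithelia, had 2 counts in M4 and 1215 in M0, with M0 higher by a ratio of 362 (interval 100 to 2994) (adjusted p = 4.1e-07), and ATP6V1B1, a proton pump subunit, had no count in M4 and was at least 179-fold lower. AQP5, named above, belongs to this list and moved the other way, together with CA2, carbonic anhydrase 2, at 1.18 ± 0.29, and CLDN4 at 1.0 ± 0.16.

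**Figure D4:**
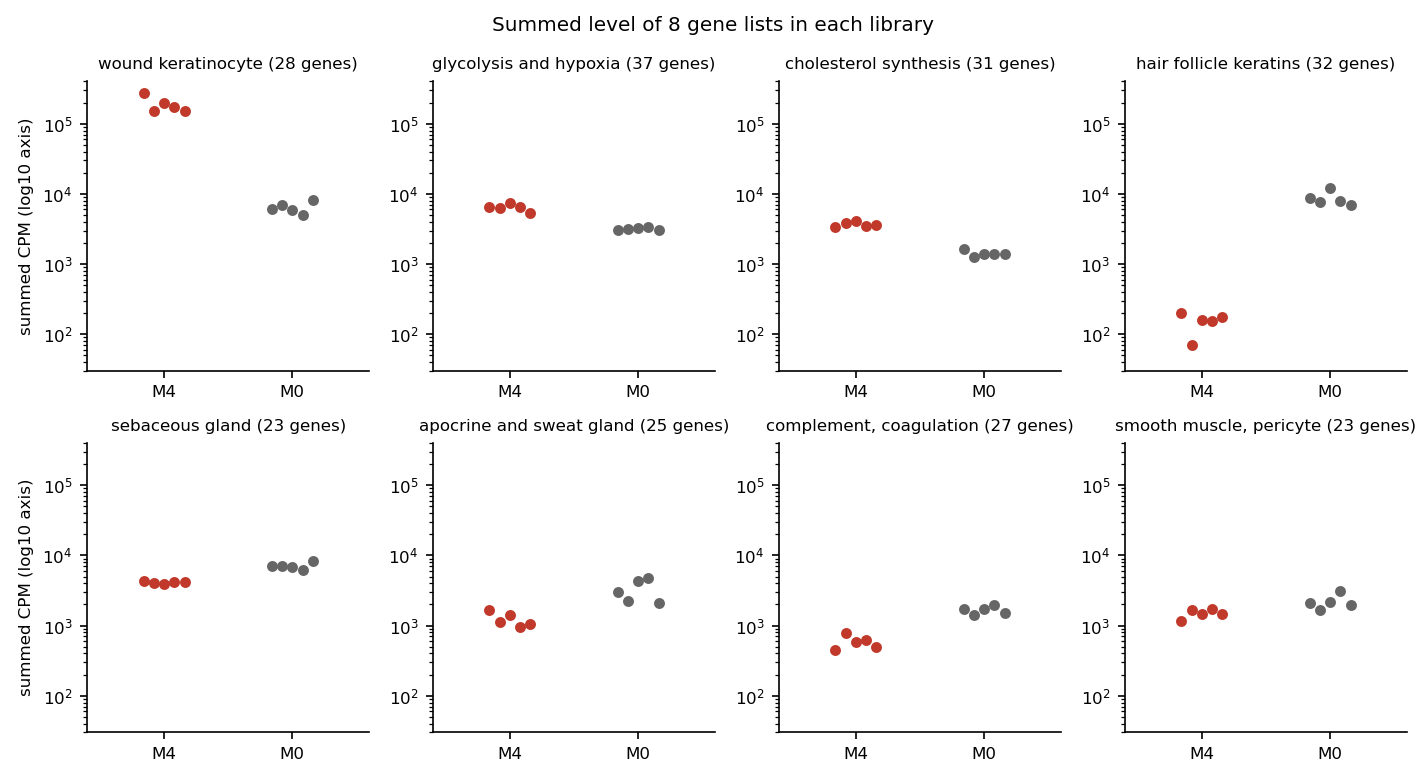
Summed level in CPM (log10 axis) of the listed genes of 8 groups in each library, M4 (red) left of M0 (grey). Hair follicle keratins sum to 69.4 to 200 CPM in M4 and 6878 to 12010 CPM in M0, wound keratinocyte genes to 151300 to 271000 CPM in M4 and 5049 to 8205 CPM in M0.

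Other lists of lipid metabolism differed in direction, and FASN is also on the sebaceous list. Cholesterol synthesis and uptake had 17 higher and 7 lower of 31 listed genes, with a median of 0.63. HMGCS1, the enzyme that forms HMG-CoA, had 1224, 1517, 1689, 1477 and 1176 CPM in M4, against 259, 206, 192, 251 and 171 CPM in M0, with no overlap and a log2 fold change of 2.71 ± 0.15 (adjusted p = 3.5e-09). MVK, mevalonate kinase, rose by 2.84 ± 0.19 and CYP51A1, which removes a methyl group of lanosterol, by 2.34 ± 0.16. Genes of sterol export and storage were among those that fell, ABCA1 at -2.30 ± 0.42 and SOAT1, which esterifies cholesterol, at -5.45 ± 0.49 (adjusted p = 1.1e-05). Fatty acid synthesis and oxidation had 7 higher and 18 lower of 42, with a median of -0.43. FASN, fatty acid synthase, averaged 609 ± 64.9 CPM in M4 and 2089.9 ± 197 CPM in M0, a log2 fold change of -1.78 ± 0.11 (adjusted p = 1.8e-08). ECI2, an isomerase of fatty acid oxidation, fell by 5.15 ± 0.26, ACSL3 by 1.80 ± 0.16, and PPARD, a fatty acid sensor of keratinocytes, rose by 1.91 ± 0.16. Of 10 adipocyte markers 5 fell and 1 rose. FABP4, the fatty acid binding protein of fat cells and endothelium, had 12304, 5725, 6545, 10388 and 10128 CPM in M4, against 38.7, 231, 202, 40.8 and 472 CPM in M0, a log2 fold change of 5.52 ± 0.83 (adjusted p = 8.9e-04) with no overlap. The fat cell markers CIDEA and CD36 fell by 5.94 ± 0.70 and 5.26 ± 0.53. The summed level of these markers, 5781 to 12370 CPM in M4 and 329 to 876 CPM in M0, is made up mostly of FABP4, whose reads may be shared with other members of its family.

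Fibroblast markers were more often lower than higher in M4, beside keratin shares that were higher. Of 33 fibroblast markers 17 fell and 2 rose, with a median of -0.72 and a summed level of 2912 to 4227 CPM in M4 and 4185 to 8277 CPM in M0. VIM, vimentin, averaged 979.5 ± 195 CPM in M4 and 1800 ± 299.8 CPM in M0 (log2 fold change -0.88 ± 0.15, adjusted p = 3.0e-04). POSTN, periostin, a matrix protein of repair, fell by 2.36 ± 0.20 (adjusted p = 2.5e-07), whereas IGFBP2, which binds insulin-like growth factors, rose by 3.64 ± 0.57. Of 33 collagen genes 9 fell and 2 rose, with a median of -0.11, and the share that fell lies near the 21.4% of all genes. The number that rose was 8 without M0 replicate 5 and 1 without any of 6 other libraries, which are M4 replicates 2, 4 and 5 and M0 replicates 1, 2 and 4, and the number that fell was 5 without M4 replicate 4 or M4 replicate 5. COL1A1, the main dermal collagen, had 523, 989.5, 1343, 999.9 and 1048 CPM in M4, against 454, 501, 189, 241 and 1897 CPM in M0, and was not called (adjusted p = 0.52). M0 replicate 5 was the highest of all 10 libraries for COL1A1, and without it COL1A1 was called at 1.5 (adjusted p = 0.0093). PCOLCE2, an enhancer of collagen processing, fell by 4.1 ± 0.59 (adjusted p = 3.7e-04). Of 38 genes of elastic fibres, proteoglycans and matricellular proteins 12 fell and 2 rose, with a median of -0.61. Those that rose were THBS4 by 1.79 ± 0.31 and ASPN by 0.70 ± 0.24, and only 1 of them was called without M4 replicate 1, M4 replicate 5 or any of M0 replicates 1, 2 and 3. BGN, biglycan, fell by 0.91 ± 0.17 and CCN5 by 3.87 ± 0.54. Of 21 matrix proteases and inhibitors 6 rose and 4 fell, which is also not far from the shares of all genes. PLAUR, the urokinase receptor, rose by 4.0 ± 0.50, MMP28, a keratinocyte protease, by 1.91 ± 0.17 and MMP12 by 3.70 ± 0.80. TIMP2 and SERPINE2, inhibitors of matrix degradation, fell by 1.66 ± 0.21 and 1.76 ± 0.13.

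Smooth muscle and nerve markers were more often lower than not, and endothelial markers were mixed. Of 23 smooth muscle and pericyte markers 14 fell and 1 rose, with a median of -1.37 and a summed level of 1152 to 1713 CPM in M4 and 1680 to 3102 CPM in M0. MYH11, the smooth muscle myosin, averaged 23.3 ± 7.10 CPM in M4 and 126 ± 42.8 CPM in M0 (log2 fold change -2.42 ± 0.26, adjusted p = 1.5e-05). PLN and LMOD1, proteins of the contractile cell, fell by 2.43 ± 0.21 and 2.09 ± 0.25. Of 31 endothelial markers 12 fell and 3 rose, with a median of -0.56 and a summed level of 508 to 574 CPM in M4 and 523 to 807 CPM in M0, and the number that rose was 6 without M0 replicate 4 and 5 without M4 replicate 1. VWF fell by 1.4 ± 0.16, EDN1, endothelin, by 1.78 ± 0.29 and PECAM1 by 1.16 ± 0.22, whereas PLVAP, a protein of leaky vessels, rose by 1.26 ± 0.17 (adjusted p = 3.1e-05). Of 12 nerve, Schwann cell and melanocyte markers 8 fell, with a median of -1.90. The myelin gene MBP fell by 3.26 ± 0.43 and MITF, the regulator of melanocytes, by 2.64 ± 0.47. Of 5 skeletal muscle and blood markers 2 fell, DES, desmin, by 3.49 ± 0.62 and ENO3 by 1.27 ± 0.44. The number was 1 without any of M4 replicates 1 to 3 and M0 replicates 1, 2, 3 and 5, since ENO3 was then not called. The part of tissue makeup in these results was not tested.

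Genes of glycolysis were higher in M4. Of 37 listed genes of glycolysis and the hypoxia response 21 rose and 4 fell, with a median of 0.67 and a summed level of 5399 to 7486 CPM in M4, against 3015 to 3422 CPM in M0. The number that fell was 2 without M4 replicate 4 or M0 replicate 4. HIF1A, the oxygen-sensitive transcription factor, had 312, 399, 418, 393 and 274 CPM in M4, against 85.4, 93.3, 106, 103 and 96.6 CPM in M0, with no overlap and a log2 fold change of 1.89 ± 0.14 (adjusted p = 5.4e-08). HK2, a hexokinase, rose by 4.39 ± 0.52, PFKP, a phosphofructokinase, by 1.53 ± 0.14, PGAM1 by 1.73 ± 0.14, ENO1 by 1.28 ± 0.12 and the glucose transporter SLC2A1 by 1.52 ± 0.16. Genes of oxidative phosphorylation had 33 higher and 7 lower of 83, with the smaller median of 0.23. Their summed level did not rise, at 72990 to 103300 CPM in M4 (median 84910) and 81620 to 107400 CPM in M0 (median 96250), with overlapping groups. COX8A and COX6B1, subunits of cytochrome oxidase, and ATP5MF, of ATP synthase, rose by 1.05 ± 0.13, 0.98 ± 0.13 and 0.88 ± 0.12. SDHD, a subunit of succinate dehydrogenase, fell by 1.35 ± 0.16 (adjusted p = 1.0e-05), and among genes of the mitochondrial genome ND3 fell by 0.50 ± 0.12. Ribosomal protein genes had 21 higher and 1 lower of 77, with a median of 0.16, and the number that rose was 11 without M4 replicate 4 or M0 replicate 2. RPL38 rose by 0.57 ± 0.10 and RPS10 by 0.56 ± 0.11, and no ribosomal gene passed a test against a fold change of 1.5.

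Genes of the dividing cell were often higher. Of 47 cell cycle genes 24 rose and 3 fell, with a median of 0.80. The number that rose was 14 without M4 replicate 2, M4 replicate 3 or M4 replicate 4, 15 without M0 replicate 4 or M0 replicate 5, and 30 without M4 replicate 1. CCNA2, cyclin A2, had 9.72, 18.7, 18.2, 19.6 and 10.8 CPM in M4, against 6.83, 5.4, 3.04, 4.32 and 6.31 CPM in M0, a log2 fold change of 1.57 ± 0.27 (adjusted p = 3.2e-04). TK1 and MCM4, genes of DNA replication, rose by 1.17 ± 0.21 and 1.27 ± 0.25, the mitotic kinase AURKB by 1.51 ± 0.32 (adjusted p = 0.0016) and CDKN1A, an inhibitor of the cycle, by 0.91 ± 0.16. Of 45 genes of junctions, the actin skeleton and the YWHA adaptor family 30 rose and 5 fell, with a median of 0.62. GJA1, connexin 43, had 5025, 2975, 3207, 3594 and 4079.8 CPM in M4, against 567, 569, 529, 440.2 and 797 CPM in M0, a log2 fold change of 2.70 ± 0.18 (adjusted p = 3.0e-08) with no overlap. YWHAZ rose by 2.34 ± 0.16 and the actin genes ACTB and ACTG1 by 1.61 ± 0.15 and 1.6 ± 0.14. Chaperones had 23 higher and 7 lower of 43, with a median of 0.42, and the number that fell was 4 without M4 replicate 3 or M4 replicate 4. HSPA8, the constitutive HSP70, averaged 1847 ± 631 CPM in M4 and 509 ± 108 CPM in M0 (log2 fold change 1.86 ± 0.23, adjusted p = 3.8e-05), and BAG3 and DNAJB1, its partners, rose by 1.1 ± 0.11 and 1.5 ± 0.20.

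FKBP5, TSC22D3, ZBTB16 and PER1, which glucocorticoids induce in many cell types, were lower in M4. They form no list, and FKBP5, ZBTB16 and PER1 were picked after their values were seen. FKBP5 had 31.1, 58.6, 33.9, 33.6 and 36.7 CPM in M4, against 129.7, 234, 192, 212 and 86.4 CPM in M0. TSC22D3 had 6.22, 8.20, 6.59, 7.33 and 4.85 CPM in M4, against 44.4, 62.4, 76.3, 81.8 and 28.2 CPM in M0. Neither gene had overlapping groups, and the log2 fold changes were -2.14 ± 0.28 for FKBP5 (adjusted p = 8.6e-05) and -3.13 ± 0.28 for TSC22D3 (adjusted p = 1.3e-06). ZBTB16 had 1 count in M4, against 184 in M0, with M0 higher by a ratio of 109.7 (interval 19.4 to 4356). PER1 fell by 2.36 ± 0.49, and the receptor gene NR3C1 by 1.2 ± 0.13 (adjusted p = 5.4e-06). The M0 group was sampled after slaughter, and tissue source and disease cannot be told apart in this result. In the list of retinoid, steroid and vitamin D metabolism, to which these genes except PER1 belong, 10 of 26 fell and 5 rose. HSD17B2, which inactivates sex steroids, rose by 2.95 ± 0.32, and DHRS3, which reduces retinal, fell by 1.66 ± 0.16. Of 15 clock genes 8 fell and 2 rose, with a median of -0.85. DBP and NR1D1, which cycle strongly, fell by 2.12 ± 0.31 and 2.14 ± 0.34, BHLHE41 by 1.80 ± 0.25 and the activator ARNTL by 1.46 ± 0.22. The labels give no hour of sampling, so the part of the time of day was not tested. Among 20 immediate early genes 6 rose and 1 fell, with JUNB at 1.65 ± 0.14, FOS at 2.33 ± 0.45 and IER3 at 1.63 ± 0.19. The number that fell was 2 without M4 replicate 1.

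Growth factor genes were more often lower than higher. Of 34 growth factor, TGF-beta, WNT and Notch genes 14 fell and 3 rose, with a median of -0.79, and the number that rose was 5 without M4 replicate 1. FGFBP1, which releases fibroblast growth factors from the matrix, fell by 2.45 ± 0.17 (adjusted p = 4.7e-08), BTC, an EGF-like factor of hair follicles, by 4.72 ± 0.42 and INHBB, an activin subunit, by 2.98 ± 0.21, whereas BMP7 rose by 1.80 ± 0.19. Of 41 genes of oxidative stress defence 10 rose and 10 fell, close to the shares of all genes. TXN, thioredoxin, rose by 2.15 ± 0.15, GPX1 by 1.91 ± 0.16 and PRDX5 by 1.44 ± 0.16, and CAT, catalase, fell by 1.96 ± 0.21. Of 27 genes of prostaglandin, arginine and polyamine metabolism 7 rose and 12 fell. PTGS2, the inducible cyclooxygenase, had 18.7, 199, 39.8, 246 and 14.8 CPM in M4, against 3.26, 1.68, 3.04, 2.23 and 3.33 CPM in M0, a log2 fold change of 5.25 ± 1.0 (adjusted p = 0.0033) with no overlap and M4 replicates 2 and 4 the highest. Downstream of arginase, SRM, spermidine synthase, fell to 17.8 ± 4.99 CPM in M4, against 156 ± 12.5 CPM in M0 (log2 fold change -3.12 ± 0.18, adjusted p = 4.7e-09), and SAT1, which breaks down polyamines, rose by 1.42 ± 0.17. PLA2G2F, a phospholipase of upper epidermis and follicle in mice, fell by 4.95 ± 0.64. The proteasome list had 14 higher and 5 lower of 45, with a median of 0.12, PSMB6 rising by 0.88 ± 0.10 and PSMD6 by 0.78 ± 0.11, and the number that fell was 2 without M4 replicate 1, M4 replicate 5 or any of M0 replicates 1, 3 and 4, and 3 without M4 replicate 4.

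The 5 lesions were not alike. Genes of late keratinocyte differentiation were among those of greatest spread within M4. KLK5, a protease that loosens cornified cells, had 53.3, 0, 90.0, 16.4 and 222 CPM in the M4 libraries, against 84.6, 63.3, 109, 37.4 and 107 CPM in the M0 libraries. CRCT1, a cornified envelope gene, had 702, 32.5, 2072, 158 and 1259.6 CPM in M4, against 136, 191, 117, 129.8 and 208 CPM in M0. For both genes M4 replicate 2 lay below all controls and M4 replicate 5 above all of them, while M4 replicate 4 lay below the controls for KLK5 and among them for CRCT1. Neither gene was called (adjusted p = 0.96 for KLK5 and 0.069 for CRCT1). CRCT1 was called without M4 replicate 2, at 2.75 (adjusted p = 0.013), and narrowly without M4 replicate 4, at 2.70. The glandular enzyme CA6 and the keratin KRT23 were lowest in the same libraries, with 47.1, 0, 13.8, 0.667 and 75.2 CPM for CA6 and 21, 0.586, 134, 5.33 and 134 CPM for KRT23 in M4. IL1B ran the other way, with 2.72, 94.3, 4.08, 95.3 and 6.47 CPM in M4, against 2.33, 1.49, 1.83, 3.72 and 6.31 CPM in M0, the 2 highest values being those of M4 replicates 2 and 4. The same libraries were highest for CXCL2, GRO1, CXCL8, PTGS2 and CCL11. DNASE1L2, a nuclease of cornifying cells, had 18.7, 0, 42.3, 1.11 and 35.3 CPM in M4, against 16.9, 29.8, 27, 24.6 and 26.1 CPM in M0, and DEFB, a beta-defensin, had 115, 0, 136, 115 and 93.0 CPM in M4, against 15.8, 52.3, 60.7, 13.9 and 0 CPM in M0. JSP.1, an MHC class I gene, had 118, 572, 3.14, 0.667 and 214 CPM in M4, against 574, 267, 129.7, 652 and 672 CPM in M0, and reads of alleles that differ from the genome may be lost. With 5 lesions no correlation was computed.

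**Figure D5:**
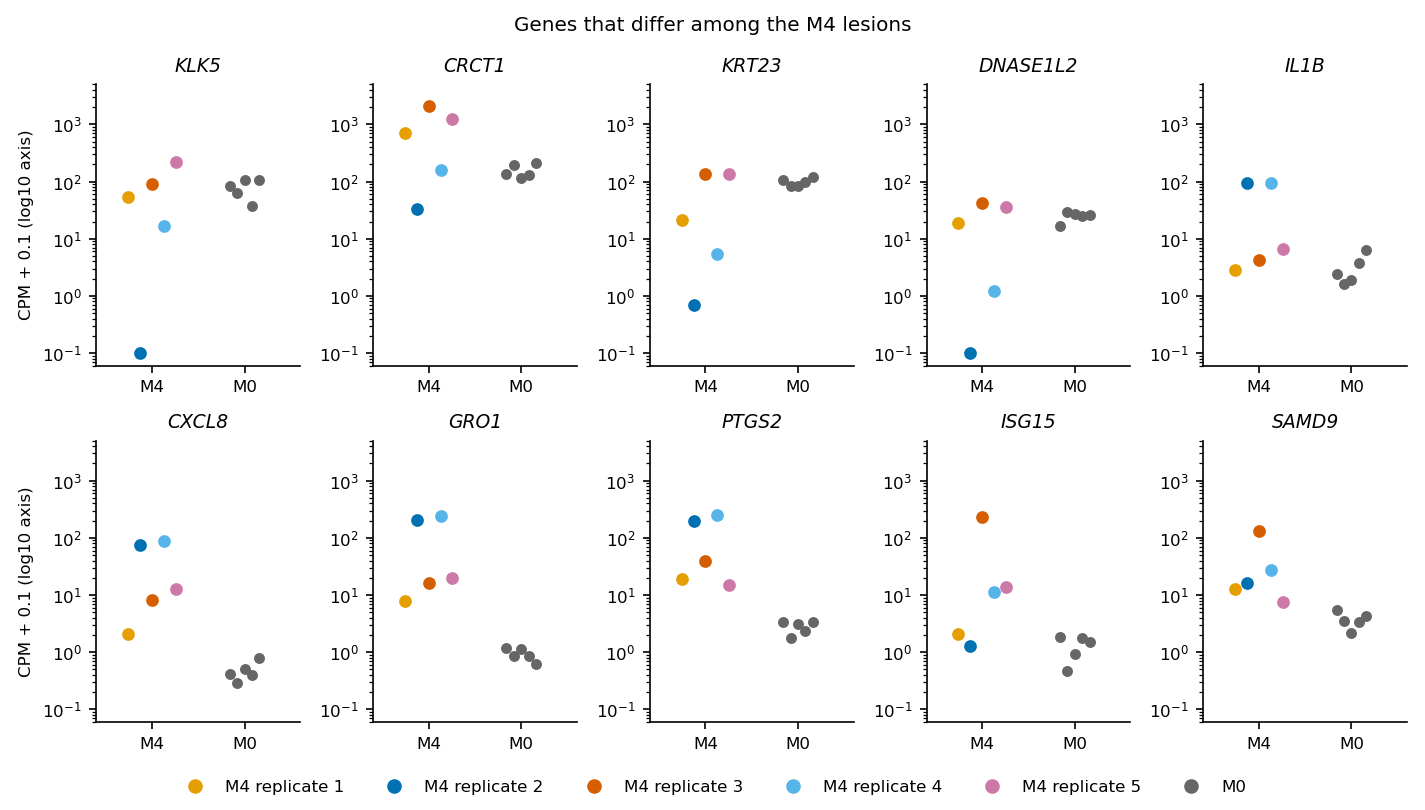
Level in CPM (log10 axis, 0.1 added) of 10 genes in each of the 5 M4 libraries (coloured by replicate) left of the 5 M0 libraries (grey). The late differentiation genes KLK5, CRCT1 and DNASE1L2 and the keratin KRT23 are lowest in M4 replicates 2 and 4. IL1B, CXCL8, GRO1 and PTGS2 are highest there, and ISG15 and SAMD9 are highest in M4 replicate 3.

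Set against the mean of the other lesion stages (M1, M2, M3 and M4.1, 19 libraries) in a fit of all 29 libraries, M4 had 625 genes higher and 295 lower of 10629 tested, 5.88% and 2.78%. These counts depend on single M4 libraries: there were 41 higher and 18 lower without M4 replicate 1, 230 and 99 without M4 replicate 3, 150 and 79 without M4 replicate 5, 528 and 218 without M4 replicate 4, and 819 and 413 without M4 replicate 2. The 8 largest rises included genes of late keratinocyte differentiation. KRT2, the keratin of the upper spinous and granular layers, averaged 92.2 ± 103 CPM in M4, against 0.995 ± 1.43 CPM in M1, 8.84 ± 19.6 in M2, 70.6 ± 89.4 in M3 and 0.801 ± 0.964 in M4.1. The groups overlapped, and the log2 difference was 4.36 ± 0.97 (adjusted p = 0.012, 0.062 without M4 replicate 5). KLK14 and KLK5 showed differences of 3.66 ± 0.87 and 2.72 ± 0.81, KRT78 of 3.77 ± 0.94, CRCT1 of 2.72 ± 0.74, SPINK7 of 3.90 ± 1.07 and SERPINA12, a protease inhibitor, of 4.86 ± 1.01 (adjusted p = 0.0085). Without M4 replicate 5 the difference of KLK14 was 2.4 and that of KLK5 1.76, and neither was called. ISG15, at 2.98 ± 0.79, was 0.14 without M4 replicate 3 (adjusted p = 0.95). The 8 largest falls were ELOVL3, at -5.79 ± 1.80, and genes of the dermis: COMP, a cartilage and tendon matrix protein, at -4.0 ± 0.88, SFRP4, a WNT inhibitor, at -3.26 ± 0.83, FGF7, the keratinocyte growth factor made by fibroblasts, at -2.31 ± 0.52, CCN3 at -2.10 ± 0.46, IGFBP4 at -1.97 ± 0.38, TGM2 at -1.69 ± 0.39 and VCAN, versican, at -1.69 ± 0.40. FGF7 averaged 3.73 ± 2.5 CPM in M4, against 16.9 ± 4.4 CPM in M1, 16.6 ± 7.46 in M2, 16.7 ± 20.8 in M3 and 29.7 ± 12.4 in M4.1. Of these 16 genes, 14 were no longer called without M4 replicate 1, IGFBP4 and SERPINA12 being the exceptions, each with an adjusted p of 0.047. The number not called was 9 without M4 replicate 5, 7 without M4 replicate 3, and 1, ELOVL3, without M4 replicate 2 or 4. With the other lesion libraries pooled as 1 group, all 8 rises and ELOVL3 were not called, among them SERPINA12 at 2.28 (adjusted p = 0.19) and KRT2 at 2.22 (adjusted p = 0.23). Limma-voom did not call 6 of the 16 genes and the replicate block 5. All 16 genes overlapped between M4 and the other lesion libraries.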

How the data were processed

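The expression data are deposited as 1 table for each lesion stage against M0, with whole-number counts per gene and library as the authors deposited them, the authors' TMM-scaled signal per library and their p-values. Per the submitters' processing notes, reads were handled on bovine build ARS-UCD1.2 with RSEM 1.3.1 and STAR, and with edgeR, cutadapt 2.8 and FastQC 0.11.7. The versions of STAR and edgeR are not given in the sources used here. In the M4 table every listed gene exceeds 1 CPM in at least 5 libraries, so genes low in both groups were not analysed here. RSEM divides reads that match several genes, which makes values of near-identical genes depend on one another. Levels and folds come from 3′ counts and carry no correction for length.

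Counts of the 5 M4 and 5 M0 libraries were fitted in edgeR 4.0.16 (R 4.3.3, limma 3.58.1) with TMM factors, robust dispersions and a quasi-likelihood F test of M4 over M0, and p-values were adjusted over all 10833 genes by Benjamini-Hochberg, with 0.05 as the threshold. The SE of a log2 fold change is its size divided by the square root of F. These counts gave back the deposited p-values within 1.02e-09 on the log10 scale and the deposited signal within a relative difference of 4.88e-15. The comparison with the other lesion stages used 1 fit of all 29 libraries over the 10629 genes listed in all tables and set M4 against the mean of the 4 stage coefficients. Every column of the tables belongs to a library of the series. The totals of 3652349 to 5337415 counts per library set the precision: 1 count is worth 0.149 to 0.389 CPM. A group without counts was given a floor of 3 counts over the group, and a group with 1 to 3 counts a ratio with an exact interval at 95%, both for counting error only. Log2 CPM for the principal components used a prior count of 2.

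The members and the 47 gene lists (1720 symbols) were chosen with earlier results of these data known, so the lists are described by counts and medians without tests. Genes were named by rule: among called genes above the median level, the 15 that rose and the 15 that fell furthest, the 10 most abundant genes of each group, at most 4 called genes per list by smallest p, the interleukin 17 receptor genes, the 8 largest rises and falls against the other stages and the 8 genes of greatest spread within M4. Other genes were named after their values were seen: ABCA1, ACTB, ACTG1, ALPL, ASPN, AURKB, C4A, CA2, CASP14, CCL20, CKM, CLDN4, CNFN, COL17A1, COL1A1, CRYM, CST6, CXCL8, DSG2, ELOVL5, EPGN, EREG, F3, FABP4, FABP5, FCGR3A, FKBP5, GJB2, HBEGF, HK2, IGFBP2, IL1A, IL1B, IL1R2, IL36G, IL36RN, IVL, JCHAIN, KRT75, LCN2, LOR, LTB4R, LTF, LYZ1, MMP12, MX1, NFKBIA, NFKBIZ, PADI4, PER1, PIGR, PRSS27, PTGS2, S100A7, S100A9, SCD, SELENBP1, SERPINB4, SERPING1, SLC2A1, SOAT1, TGM1, TGM3, WFDC2, ZBTB16, and the genes without a symbol. Results of some genes are not reported here. Alternatives were DESeq2 1.42.0, limma-voom, other scaling, filters, a replicate block, a test against a fold change of 1.5 and leaving out each library. Leaving keratin genes out of the totals, and leaving out M4 replicates 1 and 3 together, were chosen after seeing the data. Figures were drawn with Python 3.11.15 and matplotlib 3.10.9.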

Additional observations from a re-analysis of the deposited data

Results flagged for a closer look

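In 26 of 527 groups of 5 libraries, taken over the genes named in the text with a group mean of at least 1 CPM, the summed lists and the library measures, 1 library stood apart from the other 4. Chance alone flags about 1 in 20 such groups. Of the flagged libraries, M4 replicate 1 and M0 replicate 3 came up 6 times each and M4 replicate 3 came up 5 times.

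Among the lesions, M4 replicate 3 had the highest summed level of interferon response genes, 1970 CPM, against 331.4 to 484.3 CPM in the other lesions. It also stood apart for IFI27 at 38.0 CPM, PI3 at 1789 CPM, TRAF3IP2 at 45.5 CPM and ENSBTAG00000049929, described as a lysozyme, at 269.8 CPM. M4 replicate 1 had the lowest summed level of antimicrobial genes, 1256 CPM, against 3620 to 4548 CPM in the other lesions, of collagens, 1554 CPM, and of the interleukin 1 and 36 family, 945 CPM. It was lowest for the elafin-like ENSBTAG00000039446 at 14.4 CPM, against 167.8 to 223.5 CPM, and highest for ACSL3 at 164.5 CPM and WNT10A at 12.1 CPM. M4 replicate 2 had the lowest sum of hair follicle keratins, 69.4 CPM, and the highest level of FKBP5, 58.6 CPM.

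Among the controls, M0 replicate 3 was lowest for the sum of elastic fibre and proteoglycan genes at 1933 CPM, the sum of mast cell, basophil and eosinophil markers at 33.3 CPM, SERPING1 at 20.1 CPM, IGFBP2 at 2.44 CPM and PLAUR at 0.609 CPM, and highest for the sum of retinoid and steroid genes at 1613 CPM. M0 replicate 5 was highest for ARG1 at 5.26 CPM and lowest for ENO1 at 201.9 CPM and NR3C1 at 96.8 CPM. M0 replicate 1 was lowest for ARNTL at 10.3 CPM and COX6B1 at 53.7 CPM. M0 replicate 2 was highest for ENSBTAG00000014335, described as steroid 17-alpha-hydroxylase, at 125 CPM and for the sum of cell cycle genes at 1414 CPM.

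M4 differed from the mean of the other lesion stages in 625 genes that were higher and 295 that were lower, by a test of that difference in edgeR.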

How the results depend on the processing

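With 2040 genes higher and 2323 lower in M4 than in M0, the counts were 2088 and 2266 with RLE size factors, 1965 and 2165 after filterByExpr (9529 genes), 1988 and 2178 with at least 10 counts in 5 libraries (9622 genes), 2054 and 2332 without robust estimation, 2174 and 2348 in DESeq2 (12 genes without an adjusted p), 2017 and 2338 in limma-voom, 2209 and 2226 in 1 fit of all 29 libraries and 2076 and 2289 without keratins in the totals. A test against a fold change of 1.5 called 903 higher and 1158 lower, by its construction the larger changes. Leaving out single libraries gave 1842 to 1995 higher and 1957 to 2234 lower, and leaving out M4 replicates 1 and 3 gave 1809 and 1997. With the replicate number as a block, 1898 were higher and 2185 lower. The deviations of same-numbered libraries correlated at -0.124, 0.0375, 0.107, 0.0732 and 0.0885 for numbers 1 to 5, and 2 of the 5 M4 libraries correlated best with the control of their own number, so the numbers were not taken to pair the samples. The median log2 fold change of all genes moved by 0.0134 with RLE size factors, 0.00844 without keratins, 0.0126 in DESeq2 and 0.0247 in the fit of all 29 libraries. For M4 against the other lesion stages, with 625 genes higher and 295 lower, limma-voom called 169 lower, the replicate block 412 higher and 193 lower, and pooling the other lesions as 1 group 373 higher. Leaving out single M4 libraries gave 41 to 819 higher and 18 to 413 lower. The cause was not tested.

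Among single genes the sign turned for values near 0. IL17RA stood at -0.03 in the main comparison, at 0.00212 with all 29 libraries, at 0.0201 without M4 replicates 1 and 3, and from -0.089 to 0.0464 when single libraries were left out. KLK5 stood at -0.07 and ran from -1.02 to 0.251 in the same way. Calls were also gained with all libraries kept. Limma-voom called S100A7 (-3.78, adjusted p = 0.0035) and LOR (-2.61, adjusted p = 0.022) as lower. CRCT1 was called higher in DESeq2 (2.45, adjusted p = 0.011) and in edgeR without robust estimation (2.43, adjusted p = 0.019). MX1 was called higher in edgeR without robust estimation (2.18, adjusted p = 0.028) and in the fit of all 29 libraries (2.22, adjusted p = 0.04). Outside the single-library results given in the text, limma-voom lost the calls of CXCL2, KRT9 (6.28, adjusted p = 0.095), IL1B, IL7R, ISG15 and LCK. The fit of all 29 libraries lost those of KRT10 (2.09, adjusted p = 0.15), KRT1, NFKBIA, SELENBP1, ASPN, ENO3 and JCHAIN, and the replicate block those of CCL20 (3.17, adjusted p = 0.054), SAMD9 (2.63, adjusted p = 0.062), KRT1, ISG15, IL1B and ENO3. The test against a fold change of 1.5 lost 20 genes of the text, among them BGN, CA2, FABP5, ND3, PSMD6, RPL38 and RPS10. Of the 94 list counts, 40 moved by over 1.5 times under that test, for example oxidative phosphorylation from 33 higher to 7, cell cycle from 24 to 9 and fibroblast markers from 17 lower to 8. Without M4 replicates 1 and 3, 17 list counts moved, with 10 fibroblast markers and 3 collagens lower. Elsewhere antigen presentation had 5 lower in DESeq2 and limma-voom, endothelial markers had 5 higher in DESeq2, in limma-voom and with at least 10 counts, interferon response had 10 higher without robust estimation, collagens had 4 higher in limma-voom, and the chaperones had 4 lower with the block. List counts of at most 2 genes also changed by 1 gene in limma-voom, in the fit of all 29 libraries, with the block and when single libraries were left out. At these depths genes with few counts in a group are limited by counting error.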

Other observations

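Of 605 genes that the deposited table lists without a symbol, 90 were called higher and 96 lower in M4 than in M0, and 246 carry a description. Both shares are below the 18.8% and 21.4% of all genes. The gene ENSBTAG00000039446, described there as elafin-like, averaged 161 ± 84.2 CPM in M4 and 0.234 ± 0.222 CPM in M0, a log2 fold change of 9.24 ± 0.99 (edgeR, adjusted p = 1.1e-04), beside the rise of PI3 itself. ENSBTAG00000014329, described as antileukoproteinase, a protease inhibitor of mucous surfaces, had 296, 399, 1340.4, 192 and 332 CPM in M4, against 2.64, 1.3, 5.07, 1.49 and 4.56 CPM in M0. Every M4 library lay above every M0 library, and the log2 fold change was 7.42 ± 0.78 (adjusted p = 9.9e-05). Genes described as lysozymes rose by similar amounts, ENSBTAG00000020564, the tracheal isozyme-like gene, by 7.36 ± 0.79 and ENSBTAG00000049929 by 7.74 ± 0.72. ENSBTAG00000052422, described as beta-defensin 103A-like, rose by 4.41 ± 0.61, and ENSBTAG00000040019, described as keratin 6C, by 4.74 ± 0.67. All of these belong to families of near copies, so reads may be shared with the relatives that have a symbol.

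Among the genes without a symbol that fell, ENSBTAG00000038759, described as keratin associated protein-like, averaged 0.740 ± 0.751 CPM in M4 and 715 ± 237 CPM in M0, a log2 fold change of -9.85 ± 0.47. ENSBTAG00000046075, with the same description, had 3 counts in all M4 libraries together, against 17537 in all M0 libraries, and M0 was higher by a ratio of 3485 (interval 1192 to 16900). ENSBTAG00000050494, described as a prolactin-inducible protein homolog, an apocrine secretion, had 2 counts in M4, and M0 was higher by a ratio of 1727 (interval 478 to 14260). ENSBTAG00000012491, described as allergen Bos d 2, and ENSBTAG00000047990, described as major allergen Equ c 1-like, are dander lipocalins like BDA20. They had no count in M4 and were at least 254-fold lower and at least 189-fold lower. ENSBTAG00000014335, described as steroid 17-alpha-hydroxylase, acts in the step after CYP11A1 and had 2 counts in M4, with M0 higher by a ratio of 622 (interval 172 to 5141).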
